A study of Homo sapiens with 6 samples.

Results

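The 9 genes described here encode the enzymes that make serine from a glycolytic intermediate and pass its carbon to folate. They are PHGDH, PSAT1, PSPH, SHMT1, SHMT2, MTHFD1, MTHFD2, MTHFD1L and ALDH1L2, chosen by their symbols from a table of 61806 genes, and each of the 9 was found once. The cells were U87-MG, a long-established human line from a glioblastoma, and RNA sequencing gave 6 libraries. In 3 of them the cells carried a negative control (NC, labelled wildtype), and 3 are labelled GRIK1 siRNA with the genotype GRIK1 knockdown. No other treatment or allele is named for either group. GRIK1 is a kainate-type glutamate receptor subunit, and the comparison addresses which genes change when it is knocked down. The methods name 3 siRNA sequences, the deposited design names an shRNA, and the labels do not say whether the numbers 1, 2 and 3 stand for sequences or for repeats. The study took the first of its sequences into later experiments, without naming these libraries. Nothing states that the libraries came from separate cultures, so the spread between them may be technical.

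Serine synthesis runs in the cytosol through PHGDH, PSAT1 and PSPH, in that order. Serine hydroxymethyltransferases then split serine into glycine and a one-carbon unit bound to tetrahydrofolate, SHMT1 in the cytosol and SHMT2 in mitochondria. In mitochondria the unit is oxidised by MTHFD2 and released as formate by MTHFD1L, or burned to carbon dioxide by ALDH1L2. In the cytosol MTHFD1 takes up formate again for the synthesis of purines, thymidylate and methionine. Several of these genes are known targets of the stress-responsive transcription factor ATF4 and of MYC, and MTHFD2 and SHMT2 are among the metabolic enzymes most often raised in tumours.

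The libraries held between 11099909 and 14006968 counted reads. GRIK1 had 18, 9 and 8 counts in NC against 15, 20 and 20 counts in the GRIK1-siRNA-labelled libraries. Its log2 fold change was 0.44 (SE 0.43, edgeR adjusted p = 0.62 without a filter on low values), so no reduction of the targeted transcript was detectable at these counts. BACH1 overlaps GRIK1 on the opposite strand with between 637 and 1290 counts, and the GRIK1 level is uncertain where strand was not used. The study itself reported an efficient knockdown of GRIK1 in U87-MG cells from its own measurements of GRIK1 levels, without naming these libraries. The libraries of the knockdown group are called GRIK1-siRNA-labelled throughout. NC library 3 stood apart from the rest. Its correlation across genes with the other 5 libraries lay between 0.952 and 0.968, whereas the other 5 correlated at 0.98 or more with each other. Of the markers of the line, VIM lay between 825 and 1076 FPKM and CD44 between 50.8 and 71.6 FPKM. NES lay between 0.21 and 0.69 FPKM, while GFAP stayed at or below 0.28 FPKM and S100B at or below 0.04 FPKM. FN1 was 11.6 FPKM and TNC 24.8 FPKM in NC library 3, against at least 62.9 and 144 FPKM in the other libraries. Of 9 markers of immune, epithelial, endothelial, neuronal and oligodendrocyte cells, 3 had a mean of at least 0.5 FPKM. They were CD68 (3.27), EPCAM (1.53) and SYT1 (0.595). The summed level of the 9 ran from 3.54 to 5.77 FPKM in NC and from 6.71 to 6.87 FPKM elsewhere. The part of these differences in the results was not tested.

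The 9 genes spanned a wide range of levels. Levels are given as normalized FPKM, which are counts scaled to the exonic size of the gene and to the library, with the TMM scaling used in the test. PSAT1 was the highest, with a mean of 117 over the 6 libraries, above 98.2% of the 15870 genes tested. SHMT2 (mean 39.1) and PHGDH (mean 30.8) followed. ALDH1L2 (18.4), MTHFD2 (16.8) and MTHFD1L (14.9) came next, then PSPH (7.63) and MTHFD1 (6.43). SHMT1 was the lowest, with a mean of 1.02, above 18.5% of the genes tested. Over the 6 libraries, the ranges of 4 neighbouring pairs in this order overlapped. They were SHMT2 and PHGDH, ALDH1L2 and MTHFD2, MTHFD2 and MTHFD1L, and PSPH and MTHFD1. SHMT2 was higher than SHMT1, and MTHFD2 and MTHFD1L were higher than MTHFD1, in each library. In raw counts, however, MTHFD1 (1264 to 1446) was above MTHFD1L (779 to 968) in each library. The order of MTHFD1L and MTHFD1 thus rests on their exonic sizes. The exonic size behind these values joins the exons of all transcripts of a gene and ran from 2206 bases for PSAT1 to 17357 bases for MTHFD1, so the levels of genes with many long alternative exons are understated.

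**Figure D1:**
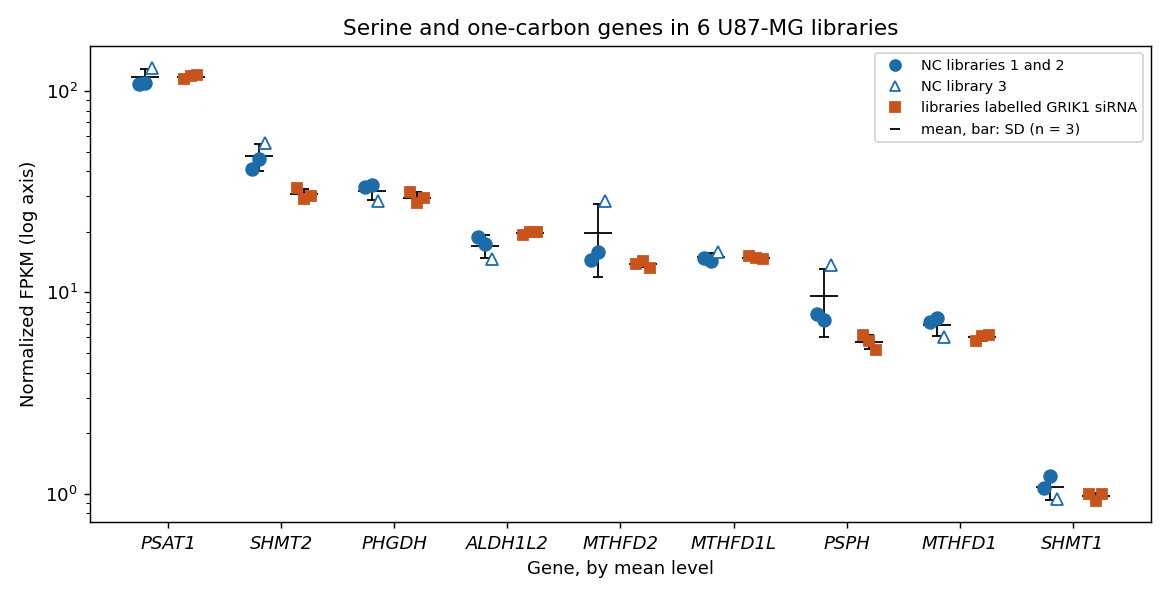
Normalized FPKM of the 9 genes (log axis) in each library, ordered by mean level, with circles for NC libraries 1 and 2, open triangles for NC library 3, squares for the GRIK1-siRNA-labelled libraries, and bars for the mean and SD (n = 3). PSAT1 sits highest, between 109 and 131, SHMT1 sits lowest, and NC library 3 lies outside the other NC libraries for each gene.

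In the comparison of the groups, 0 of the 9 genes passed the test at an adjusted p under 0.05 (edgeR quasi-likelihood test, Benjamini-Hochberg adjustment over all genes tested), against 3.09% of the genes tested. An unadjusted p was under 0.05 for 2 of the 9, PSPH and SHMT2, against a background of 25.1%. The log2 fold changes were negative for 7 of the 9 genes, with a median of -0.15, where the median of all genes tested was -0.02. Of all 15870 genes tested, 8158 had a negative log2 fold change. Groups did not overlap in normalized FPKM for 4 of the 9 genes, against 38.5% of all genes. SHMT2, PSPH and MTHFD2 lay lower in the GRIK1-siRNA-labelled libraries, against 19.0% of all genes, and ALDH1L2 lay higher, against 19.4%. In the FPKM as deposited 2 members lay lower and 2 higher, since MTHFD2 overlapped there and PSAT1 did not. The count of 4 of 9 is close to the share over all genes.

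Leaving out NC library 3 changed these calls. Then 4 of the 9 genes had an adjusted p under 0.05 from edgeR, against 35.2% of the genes tested. Each of the 4, SHMT2, MTHFD1, PHGDH and PSPH, was lower in the GRIK1-siRNA-labelled libraries, and 18.3% of all genes were called lower in that fit. None of the 4 reached a 2-fold change. The low p-values of this fit rest on a smaller spread between libraries of a group. As a measure of that spread, edgeR estimated a common dispersion of 0.00298 here, against 0.0391 in the main test. The smaller value comes from the libraries kept, and their spread may be technical. When any 1 of the other 5 libraries was removed, 0 of the 9 genes and 0 of all genes passed with edgeR. In those fits between 1 and 3 of the 9 had an unadjusted p under 0.05 from edgeR. Of the 15870 genes tested, between 2238 and 4434 did.

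Each of the 9 members lay outside the range of the other NC libraries in NC library 3, where 5 were above and 4 below. Over the genes tested, 43.2% were above and 45.3% below.

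**Figure D2:**
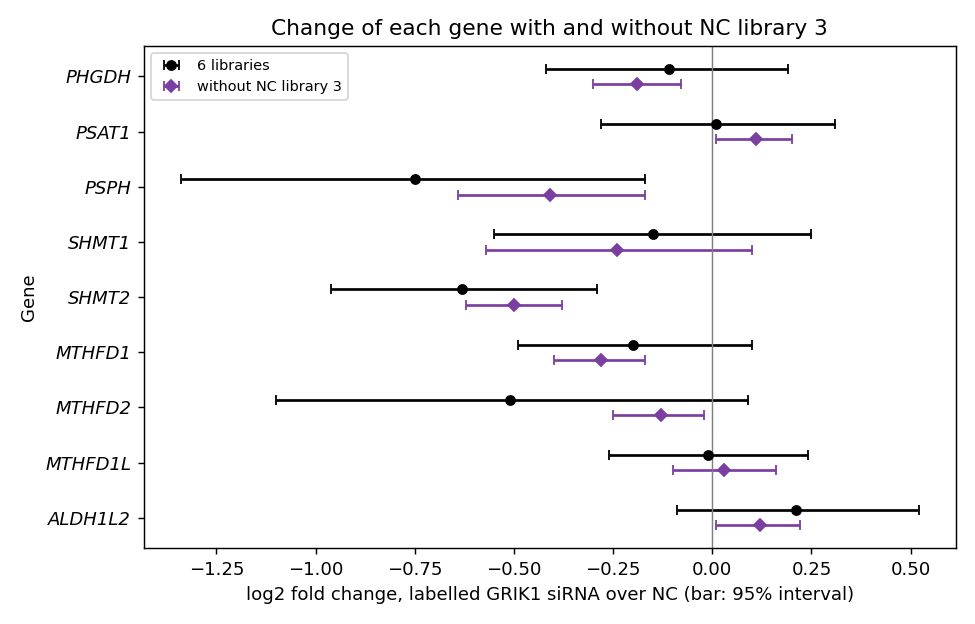
Log2 fold change of each gene between the GRIK1-siRNA-labelled libraries and the NC libraries, with 95% intervals from edgeR, for all 6 libraries (circles) and without NC library 3 (diamonds). SHMT2 is at -0.63 with all libraries and at -0.50 without NC library 3, and the intervals of PSPH and MTHFD2 are widest with all libraries.

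PHGDH (ENSG00000092621, chromosome 1 from 119648411 to 119744218, plus strand, GRCh38) catalyses the first and committed step of serine synthesis. Its normalized FPKM was 33.4, 34.2 and 28.4 in NC against 31.5, 27.8 and 29.4 in the GRIK1-siRNA-labelled libraries. NC library 3 lay within the range of the GRIK1-siRNA-labelled libraries and the other NC libraries lay above it. On the log2 scale the change was -0.11 (SE 0.13, edgeR adjusted p = 0.604), with a 95% interval from -0.42 to 0.19. Without NC library 3 the change was -0.19 (SE 0.05, edgeR adjusted p = 0.00792), the lowest adjusted p over the alternatives, which reached 0.936.

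PSAT1 (ENSG00000135069, chromosome 9 from 78297125 to 78330093, plus strand), the aminotransferase of the second step, draws its amino group from glutamate. Its normalized FPKM was 109, 110.0 and 131 in NC against 115, 119 and 120.0 in the GRIK1-siRNA-labelled libraries. The groups overlapped, with NC library 3 above and the other NC libraries below the GRIK1-siRNA-labelled libraries. In the FPKM values as deposited, which are scaled to the total count only, the groups did not overlap, with at most 116 in the NC libraries and at least 118 in the others. The fold change in log2 units was 0.01 (SE 0.13, edgeR adjusted p = 0.954), with a 95% interval from -0.28 to 0.31. PSAT1 made up 43.4% to 44.6% of the summed normalized FPKM of the 9 genes in NC and 47.9% to 50.1% in the other group. That sum was 248 to 294 in NC and 238 to 241 in the other group, while the mean of PSAT1 was 117 and 118.

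PSPH (ENSG00000146733, chromosome 7 from 56011051 to 56051604, minus strand), the phosphatase that releases free serine, had the largest change in size among the 9 with all 6 libraries, while SHMT2 had it without NC library 3. Its normalized FPKM was 7.77, 7.28 and 13.7 in NC against 6.12, 5.73 and 5.20 in the GRIK1-siRNA-labelled libraries. The groups did not overlap, and NC library 3 was at 1.81 times the mean of the other NC libraries. As a log2 fold change the difference was -0.75 (SE 0.25, edgeR unadjusted p = 0.0183 and adjusted p = 0.130), a level at 0.593 of the NC level. PSPH fell by 0.41 without NC library 3 (SE 0.11, edgeR adjusted p = 0.00799), to 0.755 of the NC level. Over all alternatives the adjusted p of PSPH lay between 0.00799 and 0.369.

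Serine hydroxymethyltransferase was represented almost wholly by the mitochondrial form. SHMT2 (ENSG00000182199, chromosome 12 from 57229573 to 57234935, plus strand) had a normalized FPKM of 41.2, 45.8 and 55.3 in NC against 32.9, 29.2 and 30.1 in the GRIK1-siRNA-labelled libraries. Each GRIK1-siRNA-labelled library was below each NC library. Its log2 fold change was -0.63 (SE 0.14, edgeR unadjusted p = 0.00279 and adjusted p = 0.0626), a level at 0.647 of the NC level, and it did not pass the threshold. SHMT2 fell by 0.50 on the log2 scale without NC library 3 (SE 0.06, edgeR adjusted p = 4.12e-06), to 0.707 of the NC level. SHMT2 also passed with DESeq2 on all 6 libraries (adjusted p = 0.00499), where 10.6% of the genes tested passed, and without the filter on low values (edgeR adjusted p = 0.0325), where 4.12% did. In the fits that left out another library its log2 fold change lay between -0.72 and -0.59. Over all alternatives its adjusted p lay between 4.12e-06 and 0.286. NDUFA4L2 overlaps SHMT2 on the opposite strand. It had between 70 and 117 counts per library, against at least 1734 for SHMT2. These counts do not show how many reads fell in the overlap. Reads discarded there as ambiguous would be seen for neither gene if strand was not used.

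SHMT1 (ENSG00000176974, chromosome 17 from 18327860 to 18363563, minus strand), the cytosolic form, had a normalized FPKM of 1.07, 1.23 and 0.940 in NC against 0.997, 0.924 and 0.993 in the GRIK1-siRNA-labelled libraries, and the groups overlapped. These values rest on 82 to 96 counts per library. The log2 fold change of SHMT1 was -0.15 (SE 0.17, edgeR adjusted p = 0.606), with a 95% interval from -0.55 to 0.25. SMCR8, on the opposite strand, overlaps SHMT1 and had between 321 and 552 counts, so the SHMT1 level is uncertain where strand was not used.

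Among the folate enzymes, MTHFD1 (ENSG00000100714, chromosome 14 from 64388031 to 64463457, plus strand), the trifunctional cytosolic enzyme, had a normalized FPKM of 7.12, 7.46 and 6.0 in NC against 5.72, 6.07 and 6.17 in the GRIK1-siRNA-labelled libraries. NC library 3 lay among the GRIK1-siRNA-labelled libraries. On the log2 scale the change was -0.20 (SE 0.13, edgeR adjusted p = 0.354). MTHFD1 fell by 0.28 without NC library 3 (SE 0.05, edgeR adjusted p = 0.000637, where the alternatives reached 0.703). ZBTB25 overlaps MTHFD1 on the opposite strand, with between 767 and 913 counts per library against 1264 to 1446 for MTHFD1.

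MTHFD2 (ENSG00000065911, chromosome 2 from 74186172 to 74217565, plus strand), the mitochondrial dehydrogenase and cyclohydrolase, had a normalized FPKM of 14.5, 15.9 and 28.6 in NC against 13.9, 14.4 and 13.3 in the GRIK1-siRNA-labelled libraries. NC library 3 was at 1.88 times the mean of the other NC libraries, the largest such ratio among the 9 genes. NC library 1 lay only just above the GRIK1-siRNA-labelled libraries. The fold change in log2 units was -0.51 (SE 0.25, edgeR adjusted p = 0.255), and -0.13 (SE 0.05, edgeR adjusted p = 0.0668) without NC library 3. The size of the MTHFD2 difference thus rested on NC library 3.

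MTHFD1L (ENSG00000120254, chromosome 6 from 150865679 to 151101887, plus strand), the mitochondrial formate-releasing synthetase, was the most even of the 9. Its normalized FPKM was 14.8, 14.3 and 15.8 in NC against 15.1, 14.8 and 14.7 in the GRIK1-siRNA-labelled libraries. As a log2 fold change the difference was -0.01 (SE 0.11, edgeR adjusted p = 0.961), and its 95% interval from -0.26 to 0.24 leaves out a 2-fold change in either direction. ALDH1L2 (ENSG00000136010, chromosome 12 from 105019784 to 105107643, minus strand), the mitochondrial formyltetrahydrofolate dehydrogenase, was at 18.9, 17.5 and 14.6 in NC against 19.3, 19.9 and 19.9 in the GRIK1-siRNA-labelled libraries. In normalized FPKM it was the only member whose groups did not overlap with the GRIK1-siRNA-labelled libraries higher, and in the deposited FPKM PSAT1 was so too. Its log2 fold change was 0.21 (SE 0.13, edgeR adjusted p = 0.339), and 0.12 without NC library 3 (edgeR adjusted p = 0.0805). WASHC4 overlaps ALDH1L2 on the opposite strand with between 1742 and 2708 counts per library, about as many as ALDH1L2 itself, so its level is uncertain where strand was not used.

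Several of these genes have pseudogenes that could share their reads. The table held 14 of them by name, for PSAT1, PSPH, SHMT1, MTHFD1 and MTHFD2. Of these, 8 had 0 counts in each library, and the highest count of any was 5, against 82 to 4075 counts for the 9 genes themselves. Reads that a counting step discards as ambiguous between a gene and its copies would not be seen in the table.

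To compare enzymes without scaling between libraries, 3 ratios were taken within each library from the deposited FPKM. SHMT2 to SHMT1 and MTHFD2 to MTHFD1 each set a mitochondrial against a cytosolic enzyme. PSAT1 to PHGDH set the second against the first enzyme of serine synthesis. The ratio of SHMT2 to SHMT1 was 38.6, 37.2 and 59.2 in NC against 33.1, 31.5 and 30.4 in the GRIK1-siRNA-labelled libraries, and the groups did not overlap. On the log2 scale it was 5.46 ± 0.37 (SD, n = 3) and 4.99 ± 0.06 (SD, n = 3), a difference of -0.47 (two-sided exact permutation test, p = 0.1, adjusted p = 0.3 over 3 ratios). With 3 libraries against 3 this test cannot give a p below 0.1. The difference was -0.26 without NC library 3.

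The ratio of MTHFD2 to MTHFD1 was 2.04, 2.13 and 4.78 in NC against 2.42, 2.38 and 2.15 in the GRIK1-siRNA-labelled libraries. NC library 3 lay above and the other NC libraries lay below the rest. The difference of the log2 means was -0.25 (two-sided exact permutation test, p = 1, adjusted p = 1), and it turned to 0.15 without NC library 3. The ratio of PSAT1 to PHGDH was 3.27, 3.22 and 4.62 in NC against 3.66, 4.28 and 4.06 in the others, with the same position of NC library 3. Its log2 difference was 0.13 (two-sided exact permutation test, p = 0.6, adjusted p = 0.9), and 0.30 without NC library 3.

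**Figure D3:**
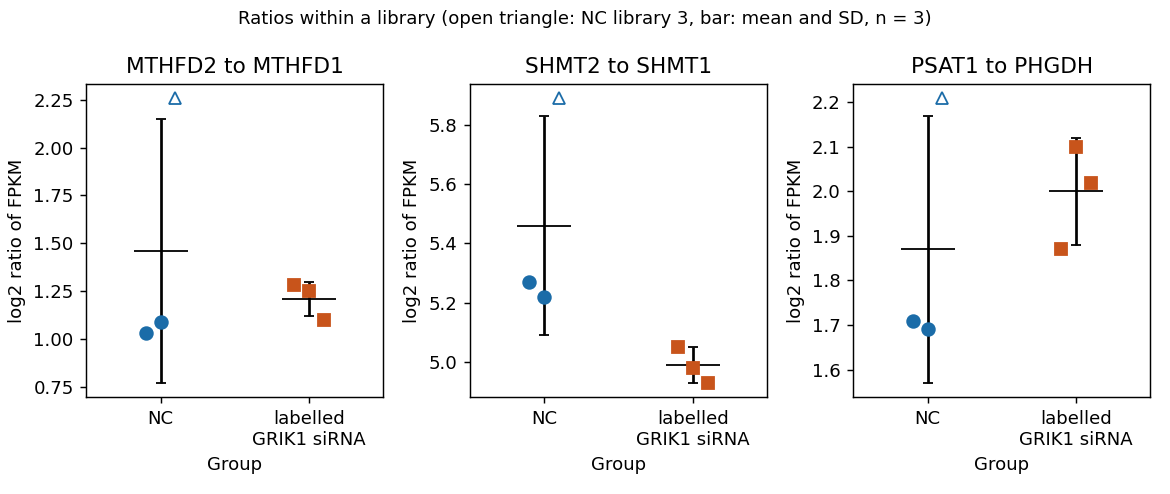
Log2 ratio of FPKM within each library for 3 pairs of enzymes, by group, with an open triangle for NC library 3 and bars for the mean and SD (n = 3). NC library 3 has the highest ratio in each panel, and the groups are separate only for SHMT2 to SHMT1.

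The genes around the pathway were taken from 6 lists with 56 genes, 48 of which were tested. With all 6 libraries 0 of the 48 passed at an adjusted p under 0.05 (edgeR). An unadjusted p under 0.05 was found for 12 lower genes, against 13.2% of all genes, and for 3 higher genes, against 12.0%. The median log2 fold change of the 48 was -0.06. Without NC library 3, edgeR called 14 lower, against 18.3% of all genes, and 6 higher, against 16.9%. Of all 15870 genes tested, 8158 had a negative log2 fold change with all 6 libraries and 7712 a positive one. Without NC library 3, 8048 were positive.

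The other folate enzymes had a median log2 fold change of -0.31 over 12 tested genes, with 8 negative, and 0 passed with all libraries. The median was -0.04 without NC library 3, and 3 were called lower, against 18.3% of all genes, and 0 higher, against 16.9%. FTCD, at low levels in each library, had 0.72 with overlapping groups (edgeR adjusted p = 0.459), and 0.25 without NC library 3. FPGS, which adds glutamate to folates to keep them in the cell, had the smallest adjusted p of the 48 and was chosen for that after its values were seen. FPGS was at 15.0, 15.2 and 14.7 in NC against 10.6, 10.8 and 10.3 in the others. Its NC libraries were close to each other, NC library 3 included, and its log2 fold change was -0.50 with all libraries (edgeR adjusted p = 0.0518) and -0.51 without NC library 3 (edgeR adjusted p = 2.11e-05).

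The enzymes of nucleotide synthesis, most of which belong to the purine route that uses one-carbon units, had a median log2 fold change of -0.29 over 7 tested genes, with 6 negative. With all libraries 0 of them passed. In the fit without NC library 3, 4 were called lower, against 18.3% of all genes, and 0 higher, against 16.9%. TYMS, the thymidylate synthase, was at 8.76, 6.97 and 8.27 normalized FPKM in NC against 5.32, 5.55 and 5.88 in the others. Its log2 fold change was -0.52 (edgeR adjusted p = 0.0907), and -0.49 without NC library 3 (edgeR adjusted p = 0.00409). PAICS, a purine enzyme, was at 31.8, 32.5 and 53.7 in NC against 23.9, 25.6 and 25.1 in the others, with a log2 fold change of -0.66 (edgeR adjusted p = 0.124) and of -0.37 without NC library 3 (edgeR adjusted p = 1.02e-05). Both genes were lower in each GRIK1-siRNA-labelled library than in each NC library.

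The methionine cycle and transsulfuration list had a median log2 fold change of 0.16 over 10 tested genes, with 6 positive and 4 negative, and 0 passed with all libraries. Without NC library 3, 3 were called higher, against 16.9% of all genes, and 2 lower, against 18.3%. AHCY, which hydrolyses S-adenosylhomocysteine, was at 41.5, 41.7 and 61.2 in NC against 32.3, 29.1 and 30.6 in the others, a log2 fold change of -0.65 (edgeR adjusted p = 0.0876), and of -0.44 without NC library 3 (edgeR adjusted p = 6.49e-06). BHMT had 0.59 with overlapping groups (edgeR adjusted p = 0.401), and 0.22 without NC library 3.

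Of the glycine cleavage system, DLD and GCSH were tested, with log2 fold changes of -0.73 and -0.42 (adjusted p of 0.184 and 0.390 from edgeR). DLD, the dehydrogenase of the system, was at 24.3, 26.1 and 54.4 normalized FPKM in NC against 20.4, 21.3 and 21.5 in the others, and its groups did not overlap. GCSH, the carrier protein, was at 4.41, 4.91 and 9.55 in NC against 5.01, 4.24 and 4.86 in the others, and its groups overlapped. Both were highest in NC library 3. Without that library their log2 fold changes were -0.26 and 0.02, and DLD was called lower (edgeR adjusted p = 0.00125).

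Of the transporters of serine, glycine and folate, 9 were tested, 7 of them with a positive log2 fold change (median 0.08), and 0 passed. Without NC library 3, 5 of the 9 were positive. SLC1A4, a carrier of serine and other neutral amino acids, was at 5.61, 4.98 and 3.63 in NC against 6.66, 6.71 and 6.78 in the others. Its groups did not overlap, with a log2 fold change of 0.50 (edgeR adjusted p = 0.133) and of 0.34 without NC library 3, where it was the 1 transporter called. SFXN2 had 0.65 at low levels (edgeR adjusted p = 0.228), and 0.41 without NC library 3.

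Of 8 tested transcription factors linked to these genes, 0 passed with all libraries. Without NC library 3, 4 were called lower, against 18.3% of all genes, and 2 higher, against 16.9%. ATF5 was at 28.3, 29.0 and 23.5 normalized FPKM in NC against 19.4, 16.8 and 18.1 in the others, with a log2 fold change of -0.57 (edgeR adjusted p = 0.0622), and of -0.66 without NC library 3 (edgeR adjusted p = 9.39e-07). MYC was at 12.6, 12.2 and 10.9 in NC against 8.38, 8.08 and 8.78 in the others, with a log2 fold change of -0.50 (edgeR adjusted p = 0.0641), and of -0.55 without NC library 3 (edgeR adjusted p = 1.56e-05). Both were lower in each GRIK1-siRNA-labelled library. ATF4, named for its known link to this pathway after its values were seen, was at 153, 160.0 and 228 in NC against 190.0, 188 and 188 in the others. ATF4 had a log2 fold change of 0.07 (edgeR adjusted p = 0.823) and of 0.28 without NC library 3 (edgeR adjusted p = 0.000173).

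**Figure D4:**
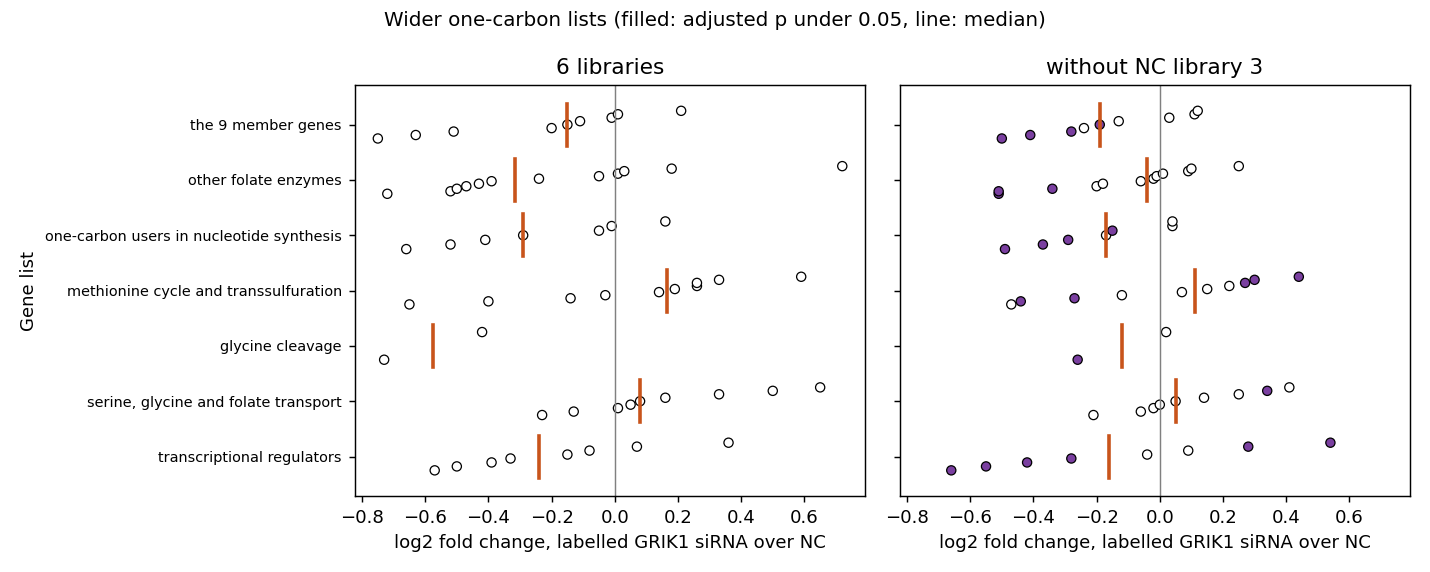
Log2 fold change of each tested gene in the 9 member genes and in 6 lists of the wider pathway, with all 6 libraries (left) and without NC library 3 (right), where filled points have an adjusted p under 0.05 from edgeR and lines mark the median. No point is filled on the left, and on the right 4 of the 9 members are, each of them lower. In the fit without NC library 3, 18.3% of all genes were called lower.

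The promoters of the members were searched for motifs of these factors, from 250 bases before to 50 bases after each start in RefSeq (GRCh38.p14). Entries matched 6 of the 9 genes, and SHMT2, PSPH and ALDH1L2 had no entry. The C/EBP-ATF response element was searched as TGATGNAA and the E-box bound by MYC as CACGTG, each on both strands, and the core of the antioxidant response element bound by NRF2 as TGACNNNGC. These letters were found in 3.63%, 7.20% and 13.3% of 34796 distinct promoters. The response element was in 1 of the 6 genes, the E-box in 2 and the antioxidant core in 1, MTHFD2. A gene was counted if any of its starts held the letters, and the 6 genes had 9 promoters. The counts per gene and the shares per promoter therefore differ in unit. MTHFD1L, which has several listed starts, holds the response element 129 bases and the E-box 154 bases before 1 of them, and MTHFD1 holds the E-box 15 bases before its start. These 3 stretches were picked with the changes known, since MTHFD1L was the most even of the 9 genes and MTHFD1 was called lower without NC library 3. PHGDH was also called lower in that fit and had none of the motifs. SHMT2 and PSPH, also called lower there, could not be searched. A link between motifs and changes was not tested. The motif is in capitals, on the plus strand, at chr6:150866346-150866375, chr6:150866320-150866349 and chr14:64388326-64388355 in this order.
MTHFD1L response element: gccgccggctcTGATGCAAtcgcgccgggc
MTHFD1L E-box: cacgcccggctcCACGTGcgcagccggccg
MTHFD1 E-box: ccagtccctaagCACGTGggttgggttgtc

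A match is a description of the letters and not of binding. PHGDH, PSAT1 and SHMT1 had none of the 3 motifs in this window.

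The genes most like PHGDH and MTHFD2 over the 6 libraries were sought by Pearson's correlation of log2 CPM among the tested genes outside the lists. For PHGDH they were PRRT1 (r = 0.995), ZBTB3 (r = 0.991) and PCAT6 (r = 0.990), each at under 2 normalized FPKM. For MTHFD2 they were SELENOT, IDH1 and PPP1CB (r of 0.9985, 0.9985 and 0.9983). Many genes were as alike, since 64 genes had an r over 0.95 with PHGDH and 1374 with MTHFD2. The points share 6 libraries, and SELENOT, IDH1 and PPP1CB were each highest in NC library 3, as MTHFD2 was. Over the 5 libraries without NC library 3, their r with MTHFD2 was 1.0, 0.97 and 0.97. In the same 5 libraries the r of PRRT1, ZBTB3 and PCAT6 with PHGDH was 1.0, 0.99 and 0.99.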

How the data were processed

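Total RNA of U87-MG cells was sequenced in 6 libraries, grouped by their labels. The submitters' processing notes list cutadapt 1.9.1, HISAT2, HTSeq and GRCh38, and the strand setting and annotation are not given in the sources used here. The authors deposited raw counts per gene, without normalization, and FPKM, which equal the count over the exonic size and the total count in 100% of values (within 0.0051). Entries that name no gene numbered 0.

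Tested genes (15870) had a mean FPKM of 0.5 or more. The counts were scaled by TMM and fitted in edgeR 4.0.16 (R 4.3.3) with its quasi-likelihood test, no block and Benjamini-Hochberg adjustment. A gene was called below an adjusted p of 0.05. The fold threshold was 1 on the log2 scale. Intervals are 95%. Ratios were tested with scipy 1.17.1. Log2 CPM used a prior count of 2. The tests were tried on simulated data. The setting and outcome of that trial are not given here, and no result rests on it. Alternatives used DESeq2 1.42.0, limma 3.58.1 on log2(FPKM + 1) and log2(FPKM + 0.1), other filters and scaling, the replicate number as a block, a fold threshold of 1.5, and each library left out.

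Members and lists were chosen with earlier results of these data known. Named genes are GRIK1, the members and their pseudogenes, in each list the genes that passed and the 2 with the largest change, and the 3 genes most like PHGDH and MTHFD2. Outside this rule, FPGS, ATF4, CTH, ALDH1L1, MTAP, GLDC and CBS were named after their values were seen. A folate gene that the rule names is not reported here. Depth limits low genes, and the number of libraries limits all tests.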

Additional observations from a re-analysis of the deposited data

How the results depend on the processing

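With 0 of the 9 genes past the threshold in the main test, the count of lower members was 2 without a filter on low values (SHMT2 and PSPH), 1 with DESeq2 (SHMT2) and 4 without NC library 3, so over the fits that left out 1 library it ran from 0 to 4. No alternative called a member higher. Of all genes, 490 passed the adjusted p and 224 also the fold threshold. These counts were 1403 and 664 without a filter, 1684 and 499 with DESeq2, 280 and 125 in limma on log2(FPKM + 0.1), and 113 past both in limma on log2(FPKM + 1). They ran from 0 to 5591 and from 0 to 491 over the fits that left out 1 library, with the highest values without NC library 3. Of the wider lists, 4 of 55 genes tested were lower without a filter, 1 of 41 with a mean FPKM of at least 1 and 6 of 48 with DESeq2, and the fits without 1 library gave 0 to 14 lower and 0 to 6 higher. The cause of these differences was not tested. With the replicate number as a block 0 genes and 0 members passed, with 3324 genes and 2 members at an unadjusted p under 0.05. The labels do not say that the numbers pair the libraries. The correlations of the deviations of same-numbered libraries from their group means were -0.07, 0.044 and -0.043. With 3 libraries per group, and NC library 3 in the NC mean, these correlations cannot decide whether the libraries were paired.

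The direction turned where a change was near 0. PSAT1 (0.01) was -0.02 without a filter and ran from -0.03 without NC library 1 or 2 to 0.11 without NC library 3. MTHFD1L (-0.01) was 0.02 with a mean FPKM of at least 1, 0.07 and 0.08 in limma with a pseudocount of 1 and 0.1, -0.04 without NC library 2, 0.03 without NC library 3 and 0.00059 without library 3 of those labelled GRIK1 siRNA. The limma fits used the FPKM as deposited, without TMM scaling. In these 2 fits the median log2 fold change of all genes tested was 0.06 and 0.09, against -0.02 in the main test. The log2 difference of MTHFD2 to MTHFD1 ran from -0.46 without NC library 1 to 0.15 without NC library 3. The other 7 genes kept their direction in each of 13 alternatives. SHMT1 rests on at most 96 counts per library.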

Other observations

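Of the 56 genes of the wider lists, 8 were below the filter, and none of them exceeded 0.35 FPKM in any library. Of these, 4 are named here, chosen after their values were seen. ALDH1L1, the cytosolic counterpart of ALDH1L2, had 0 counts in each library. MTAP, which salvages methionine, had 1, 0 and 7 counts in NC against 1, 0 and 1 in the GRIK1-siRNA-labelled libraries. GLDC, the decarboxylase of the glycine cleavage system, had 8, 10 and 7 counts in NC against 14, 9 and 13 in the others, and CBS, the first enzyme of transsulfuration, had 20, 18 and 25 against 19, 14 and 19. CTH, the second enzyme of transsulfuration, was by contrast at 18.2, 17.9 and 22.4 normalized FPKM in NC against 23.8, 23.9 and 25.7 in the others. CTH was picked after its values were seen, and its log2 fold change of 0.33 did not pass (edgeR adjusted p = 0.178), whereas without NC library 3 it was 0.44 and did (edgeR adjusted p = 0.000122).

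The summed normalized FPKM of the 9 members was 248, 254 and 294 in NC against 241, 238 and 239 in the GRIK1-siRNA-labelled libraries.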
